A study of Mus musculus with 8 samples.

Results

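Type I interferon-stimulated genes were followed in BMDMs (macrophages differentiated in vitro from mouse bone marrow with M-CSF) that carried or had lost Nudt21. The list held 58 mouse genes chosen by symbol as known targets of type I interferon. Of these, 56 had a row in the tables, out of 21080 gene symbols in all, and 2 (Mx1 and Mx2) had none and were not analysed here. The 56 genes passed the filter on low values in each of the 5 comparisons.

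RNA was sequenced from 8 samples in 4 groups of 2. The cKO mice were Nudt21 fl/fl LysM Cre on a C57BL/6 background, in which Cre made by myeloid cells under LysM removes exons 2 and 3 of Nudt21. The WT mice were sex-matched littermates that also carried LysM Cre, so that every sample shared the Cre. The groups were WT 0 h and cKO 0 h, taken as unstimulated, and WT 4 h and cKO 4 h, given IFNγ at 50 ng/ml overnight and then LPS at 50 ng/ml for 4 h. Each sample pooled the BMDMs of 2 mice, and the ages of the mice were not given in the sources used here. No sample received IFNγ or LPS alone, so the parts of the 2 agents cannot be told apart.

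Type I interferons, such as interferon beta, bind the Ifnar1/Ifnar2 receptor, whose kinases Jak1 and Tyk2 activate transcription factors. With Irf9 these form a complex that binds the interferon-stimulated response element (ISRE) in the promoters of its target genes, most of which code for antiviral proteins. In macrophages LPS induces interferon beta through Tlr4 and Irf3, while IFNγ acts mainly at the gamma-activated site (GAS), and many genes answer to both. Nudt21 is a subunit of the cleavage factor that takes part in the choice of the polyadenylation site of mRNAs.

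The sites below were read from RefSeq promoter windows (GRCm38.p6, 250 bases before to 50 after the start of a transcript) and are shown because they carry the element through which this gene group is known. The letters searched were GAAANNGAAA, the core of the ISRE, on both strands. The core was found in 23 of the 46 members that had a window and in 467 of 11675 tested genes with a window (4.0%). With only the first window of each gene the shares were 47.8% and 3.3%. The core of the GAS, TTCNNNGAA, was found in 8 of 46 members (17.4%) and in 8.5% of the genes. Each sequence runs 5′ to 3′ along the strand of its gene, and the capitals mark the core or its reverse complement.
Isg15, chr4:156200873-156200898, minus strand: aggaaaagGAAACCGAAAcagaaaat
Ifit1, chr19:34640796-34640821, plus strand: agtctcagTTTCAGTTTCtcactgct
Ifit3, chr19:34583399-34583424, plus strand: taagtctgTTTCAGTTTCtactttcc
Ifit3b, chr19:34607795-34607820, plus strand: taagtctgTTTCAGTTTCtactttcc
Oas1a, chr5:120907528-120907553, minus strand: cttctcggGAAATGGAAActgaaaat
Oas1g, chr5:120887614-120887639, minus strand: cttctcggGAAATGGAAActgaaaat
Oas3, chr5:120777717-120777742, minus strand: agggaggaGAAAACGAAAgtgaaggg
Rsad2, chr12:26456555-26456580, minus strand: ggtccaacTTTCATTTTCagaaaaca
Bst2, chr8:71537579-71537604, minus strand: aggaaaatGAAACTGAAAggctgcag
Ddx60, chr8:61928026-61928051, plus strand: gatgaatgGAAACCGAAActtaaagc

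Ifit3 and Ifit3b carried the same 26 bases, as did Oas1a and Oas1g. These are neighbouring copies, and the transcripts of each pair also share sequence (below). Isg20 and Ifi44, which come up in the comparisons of genotype, had no match to the ISRE core in their windows, and Isg20 had one to the GAS core. The PYHIN genes (a family of proteins that bind DNA or other PYHIN proteins in the nucleus and cytosol) lie together on chromosome 1. In this family 6 of the 7 members with a window held the core, and their sites are set side by side because 5 of them shared the 8 bases that follow it.
Ifi203, chr1:173942510-173942535, minus strand: gagctgggGAAATCGAAAgctatgaa
Ifi205, chr1:174031872-174031897, minus strand: aggccaggGAAATTGAAAgctatgaa
Ifi207, chr1:173741833-173741858, minus strand: tagccaggGAAATCGAAAattaagaa
Ifi211, chr1:173913066-173913091, minus strand: aagccaggGAAATTGAAAgctatgaa
Ifi213, chr1:173599328-173599353, minus strand: tctctgagGAAATCGAAAgctatgaa
Mndal, chr1:173880206-173880231, minus strand: gagctgggGAAATCGAAAgctatgaa

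The longer pattern GAAANNGAAAGCTATGAA, on either strand, occurred in the windows of 7 of the 27025 genes with a promoter window. These were the 5 members above and 2 further PYHIN genes, Ifi206 and Ifi208. A match of letters is a description of the window and was not tested as a binding site.

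The deposited values are read coverage averaged over the bases of a gene, which is already per length, so that levels can be compared between genes. The study reports shorter 3′ untranslated regions in many mRNAs of the cKO BMDMs. Such an average can change with the length of the transcripts as well as with their number, and the part of length in the genotype differences was not tested. They were not scaled between samples, and they summed to between 14950347 and 17954882 per sample. Nudt21 had a coverage of 717.7 and 640.8 in the WT 0 h samples and 158.3 and 172.3 in the cKO 0 h samples. At 4 h its coverage was 546.6 and 575.1 in WT and 142.3 and 115.2 in cKO, so that the genotypes did not overlap at either time. The 8 macrophage markers looked at had a coverage above 0 in every sample (summed coverage 50687 to 131725). The neutrophil list was higher in cKO without overlap at both times, with sums of 23950 and 26512 in WT against 27802 and 36847 at 0 h, and of 18010 and 22253 against 22710 and 25791 at 4 h. At 4 h S100a8, Ngp, Camp and Ltf were each higher in both cKO samples, Elane and Mpo were each lower, and S100a9 overlapped. The defining marker Ly6g lay between 0 and 7.37 over all samples. The macrophage sum was also higher in cKO at 4 h (61902 and 64897 against 50687 and 55593), but its genes differed in direction. Cd68 (24827 and 28817 in cKO against 12362 and 13101 in WT), Lyz2 and Mertk were higher in both cKO samples. Adgre1, Fcgr1 and Mrc1 were lower in both, and Csf1r and Itgam overlapped. Markers of T cells (16 to 201 in sum), B cells (1.7 to 143), NK cells (0 to 8.51), plasmacytoid dendritic cells (2.37 to 45.9), fibroblasts (16.5 to 222), erythroid cells (1.26 to 12.3) and mast cells or basophils (1.94 to 9.79) were low. At 0 h the macrophage markers Adgre1, Fcgr1 and Mrc1 were called lower and Cd68 higher in cKO, and at 4 h Cd68 and Lyz2 were called higher and Mrc1 lower. Of the other lists, Cd79b was called lower and Col3a1 and Pdgfra higher in cKO at 0 h, and Camp and Col3a1 higher at 4 h. The part of these markers in the results below was not tested.

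Genes were compared with limma on log2(coverage + 0.1). Calls needed more than a 1.5-fold difference together with an unadjusted p under 0.05, and calls with a Benjamini-Hochberg adjusted p under 0.05 are counted beside them. The log2 fold changes below are on the log2(coverage + 0.1) scale. Where coverage is low these depend on the pseudocount and can lie below or, with uneven samples, above the log2 ratio of the means. In bulk samples, fewer cells of a type and less RNA per cell cannot be told apart. For 1 gene by itself, 2 samples a group allow no p under 0.333 in an exact two-sided permutation test.

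IFNγ/LPS raised almost the whole list in both genotypes. The 56 members together took 0.301% and 0.289% of the summed coverage in the WT 0 h samples and 0.264% and 0.265% in cKO. At 4 h they took 3.01% and 3.08% in WT and 3.05% and 3.02% in cKO. Their median coverage went from between 384.7 and 425.9 at 0 h to between 4839 and 5343 at 4 h. In WT 54 members (96.4%) were called higher at 4 h, against 11.9% of all genes tested, and 1 was called lower, against 55.1%. In cKO 54 were called higher (13.7% of all genes) and 1 lower (53.2%). With adjusted p-values from limma 53 members rose in WT and 54 in cKO, where the shares of all genes were 11.6% and 14.6%. The median log2 fold change of the members was 3.46 in WT and 4.00 in cKO, while that of all genes tested was -1.27 and -1.05. Of all genes tested 21.7% had a positive log2 fold change in WT and 24.2% in cKO.

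**Figure D1:**
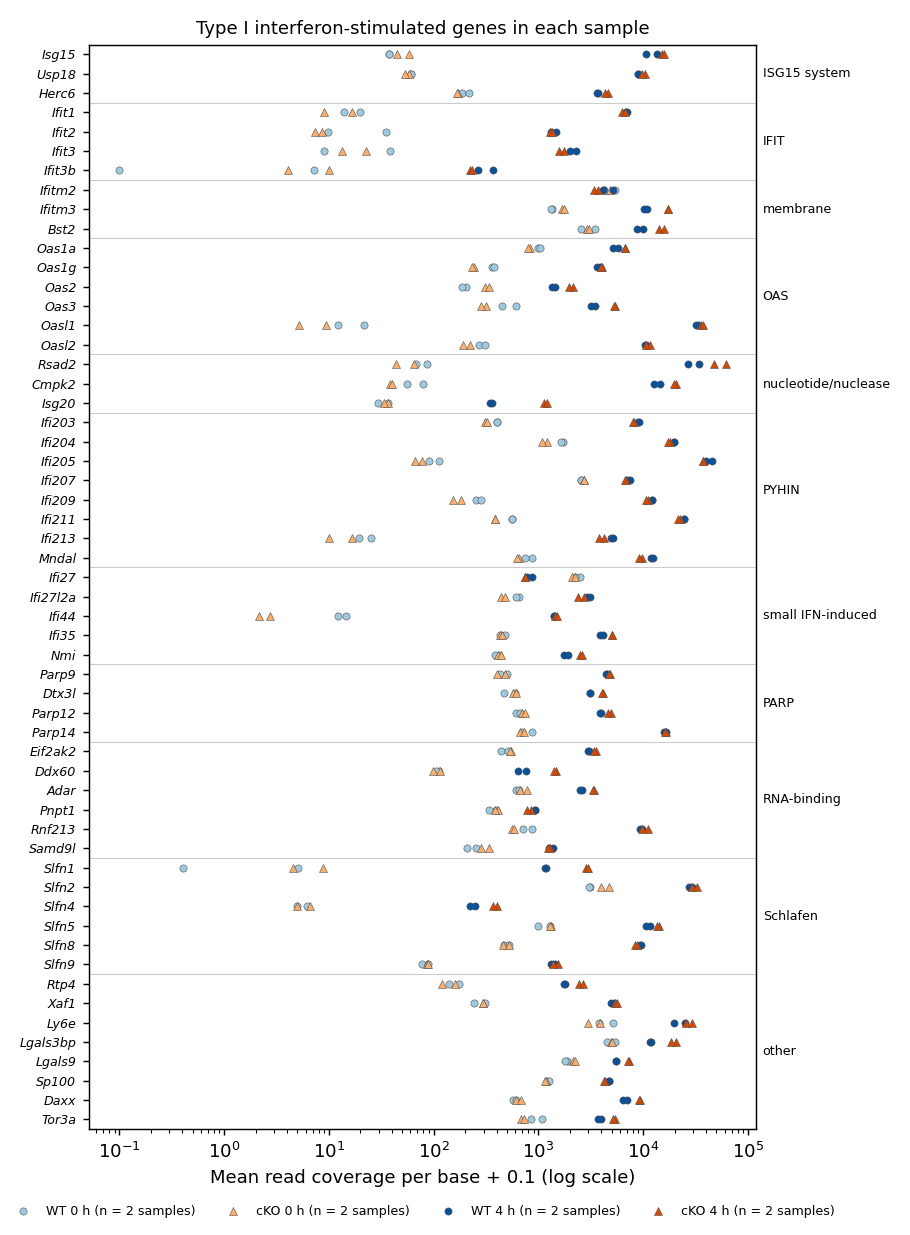
Coverage per base of each of the 56 genes in each of the 8 samples (1 point per sample, log scale, 0.1 added), grouped by role. For most genes the dark 4 h points lie far to the right of the light 0 h points, and Ifi27 and Ifitm2 are the exceptions.

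Oasl1, a member of the OAS family that has lost the enzyme activity, rose the most in WT. Its coverage was 12.2 and 21.4 in the WT 0 h samples and 33736 and 31712 in the WT 4 h samples, and 5.12 and 9.32 in cKO at 0 h and 35622 and 37318 at 4 h. The means differed 1949-fold in WT (log2 fold change 10.97, standard error 0.34) and 5049-fold in cKO (12.34, standard error 0.36). Oasl1 thus went from one of the lowest members to the second highest in WT and the third highest in cKO.

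Slfn1, a growth-regulating Schlafen gene of immune cells, had a coverage of 0.308 and 4.98 in WT at 0 h and of 1188 and 1162 at 4 h. Its log2 fold change of 9.67 in WT has a standard error of 1.46, because the 2 WT 0 h samples differed by so much. Ifi205, a PYHIN gene, had a coverage of 90.2 and 112 in WT at 0 h and of 45563 and 39670 at 4 h (log2 fold change 8.72, standard error 0.19), and was the highest member in WT at 4 h. Ifit1, whose protein binds RNA without the methylated cap of the host, had a coverage of 19.7 and 13.8 in WT at 0 h and of 7001 and 6935 at 4 h (log2 fold change 8.71, standard error 0.24). Rsad2 (viperin, an enzyme that makes a chain-terminating nucleotide) had a coverage of 68.1 and 86.0 in WT at 0 h and of 26709 and 33932 at 4 h (log2 fold change 8.62, standard error 0.23). Each of these genes had 4 h samples far above the 0 h samples in cKO too, with log2 fold changes of 8.84 for Slfn1, 9.04 for Ifi205 and 9.07 for Ifit1, and a 1010-fold rise of the mean of Rsad2.

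The ISG15 system comprises Isg15, a ubiquitin-like protein, Usp18, which removes it, and Herc6, a ligase that attaches it. Isg15 had a coverage of 37.0 and 37.7 in WT at 0 h and of 10574 and 13644 at 4 h, and its log2 fold change was 8.32 in WT and 8.25 in cKO. Usp18 rose by 7.20 in WT and 7.48 in cKO, and Herc6 by 4.18 and 4.72, on the log2 scale. The response of all 3 was therefore large in both genotypes.

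The 4 IFIT genes rose by between 6.24 and 8.71 in WT and by between 5.15 and 9.07 in cKO on the log2 scale. Ifit3b was listed at 0 in 1 WT 0 h sample and at 7.17 in the other, so its log2 fold change in WT, 8.52 (standard error 2.48, adjusted p = 0.0581 from limma), rests on the pseudocount. The 8 PYHIN members rose by between 1.52 (Ifi207) and 8.72 (Ifi205) in WT. Ifi207 was the PYHIN gene with the highest coverage at 0 h, 2548 and 2569 in WT, and reached 7216 and 7421 at 4 h.

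Members that bind RNA or are activated by it all rose. Eif2ak2 (PKR, a kinase that halts translation on double-stranded RNA) had a coverage of 441.8 and 507.7 in WT at 0 h and of 3034 and 2990 at 4 h (log2 fold change 2.67). Adar, which edits double-stranded RNA, had 611.4 and 651.9 at 0 h and 2504 and 2618 at 4 h in WT (2.02), and Rnf213, a very large ubiquitin ligase, had 712.2 and 876.2 and then 9296 and 9801 (3.60). The 6 genes of this group rose by between 1.34 and 3.60 in WT and by between 1.03 and 4.18 in cKO on the log2 scale.

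Among the PARP genes and their partner, Parp14, an ADP-ribosyltransferase, had a coverage of 695.0 and 869.8 in WT at 0 h and of 15716 and 16397 at 4 h (log2 fold change 4.37), while Parp9, its relative, and Dtx3l, the ubiquitin ligase that binds Parp9, rose by 3.28 and 2.56. Sp100 and Daxx, both proteins of the nuclear PML bodies, rose by 1.94 and 3.50 in WT. Ly6e, a membrane protein that is anchored by a lipid, had 5135 and 3749 at 0 h and 24919 and 19684 at 4 h in WT (2.34). All these genes were called in cKO too.

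The 5 smallest responses in WT were those of Ifi27, Ifitm2, Lgals3bp, Pnpt1 and Ifi207. Ifi27, which codes for a small membrane protein, had a coverage of 2489 and 2252 in WT at 0 h and of 777.1 and 860.8 at 4 h, and of 2103 and 2217 in cKO at 0 h and of 740.9 and 738.7 at 4 h. It was the 1 member called lower, by 1.53 in WT and 1.54 in cKO on the log2 scale, which is close to the median of all genes tested. After each sample was centred on its median gene the log2 fold change of Ifi27 was -0.08 in WT and -0.34 in cKO, and neither was called. Ifitm2, an inhibitor of virus entry at membranes, had a coverage of 5331 and 4188 in WT at 0 h and of 4126 and 5149 at 4 h, so that the times overlapped. Its log2 fold change of -0.04 in WT and -0.37 in cKO was not called, and after centring it was 1.42 and 0.84 and was called in both.

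Lgals3bp, a secreted glycoprotein that binds galectins, had a coverage of 4476 and 5344 in WT at 0 h and of 11689 and 11865 at 4 h (log2 fold change 1.27). Pnpt1, a mitochondrial RNA exonuclease, had a coverage of 395.8 and 338.9 in WT at 0 h and of 919.2 and 931.6 at 4 h (log2 fold change 1.34). Over the list, the 15 members with a mean coverage under 100 in WT at 0 h had a median log2 fold change of 7.68 in WT. The 28 members between 100 and 1000 had a median of 3.31 and the 13 members above 1000 a median of 1.94. These bins were set on the same WT 0 h values that the fold change in WT divides by, so part of this order was built in. In cKO the medians of the same bins were 8.25, 3.86 and 2.34. Members with and without the ISRE core in their window had median log2 fold changes of 3.91 and 3.50 in WT and of 4.07 and 4.18 in cKO, 23 members each.

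The order of the levels shifted with stimulation. In WT at 0 h the 3 highest members were Lgals3bp, Ifitm2 and Ly6e, with mean coverage of 4910, 4760 and 4442, which did not differ beyond the spread of their samples. In WT at 4 h Ifi205 (mean coverage 42617 ± 4167, SD, n = 2) stood above Oasl1 (32724 ± 1431) and Rsad2 (30321 ± 5108), and the last 2 overlapped. In cKO at 4 h Rsad2 (54652 ± 9562) was the highest, followed by Ifi205 (37625 ± 13.4) and Oasl1 (36470 ± 1199), which lay within the spread of Oasl1 of each other. The lowest members at 4 h were Slfn4, Ifit3b and Isg20 in WT, with mean coverage of 235.5, 315.8 and 353.2, and Ifit3b, Slfn4 and Ifi27 in cKO, with 228.3, 382.6 and 739.8.

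Between the genotypes at 4 h, 9 members were called higher in cKO (16.1%) and none was called lower. Among all genes tested 20.8% were called higher and 4.17% lower, so the share of members called higher was near the background. With adjusted p-values from limma 2 members (3.57%) were higher, against 3.33% of all genes. At an unadjusted p under 0.05 alone, 19 members were higher and 1 (Mndal) was lower, against 28.7% and 5.65% of all genes. Over the 56 members the median log2 fold change was 0.14, below the 0.31 of all genes tested, and 21 of the 56 lay above that median. The 2 cKO values were both above the 2 WT values in 34 members (60.7%), where all genes gave 51.1%, and both below in 17 members (30.4%), where all genes gave 14.9%.

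Isg20, an exonuclease that degrades single-stranded RNA, differed the most. Its coverage at 4 h was 364.5 and 341.9 in WT and 1119 and 1205 in cKO, and at 0 h it was 36.4 and 29.2 in WT and 36.9 and 33.5 in cKO. The cKO mean was 3.29 times the WT mean at 4 h, and at 0 h the genotypes overlapped. The log2 fold change at 4 h was 1.72 (standard error 0.11, adjusted p = 0.0395 by Benjamini-Hochberg in limma). The adjusted p from limma was 0.0745 after median-centring, 0.0519 with equal totals and 0.0532 after quantile normalization. Isg20 lies at chr7:78913424-78920396 on the plus strand of GRCm38.

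Slfn1 was the other member with an adjusted p under 0.05. It had a coverage at 4 h of 1188 and 1162 in WT and of 2841 and 2960 in cKO, without overlap (log2 fold change 1.30, standard error 0.10, adjusted p = 0.0451 from limma). Under the same 3 scalings its adjusted p from limma was 0.0883, 0.0695 and 0.0557, and with all 8 samples in the fit it was 0.448 and Slfn1 was not called. Its paralog Slfn4 had a coverage of 248.2 and 222.8 in WT and of 399.0 and 366.2 in cKO (log2 fold change 0.70, standard error 0.12). The 4 other Schlafen members had log2 fold changes of -0.13 (Slfn8), 0.08 (Slfn9), 0.12 (Slfn2) and 0.31 (Slfn5) and were not called. Slfn1 and Slfn4 were thus higher in cKO by more than the median gene, and the other Schlafen genes lay near or below it.

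Ddx60, a helicase that takes part in the sensing of viral RNA, had a coverage at 4 h of 641.3 and 756.0 in WT and of 1466 and 1400 in cKO (log2 fold change 1.04, standard error 0.14). Rsad2 had 26709 and 33932 in WT and 47890 and 61413 in cKO (log2 fold change 0.85, standard error 0.22). Oas3, which makes the oligoadenylates that activate RNase L, had 3445 and 3191 in WT and 5342 and 5257 in cKO (log2 fold change 0.68, standard error 0.11). In each of these genes the genotypes did not overlap. Their adjusted p-values from limma were 0.0600, 0.112 and 0.0670.

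Of the membrane proteins that restrict viruses, Ifitm3, which blocks virus entry at endosomes, had a coverage at 4 h of 10906 and 10094 in WT and of 17307 and 17287 in cKO (log2 fold change 0.72, standard error 0.11). Bst2 (tetherin, which holds budding virions at the cell surface) had 9918 and 8810 in WT and 14259 and 15857 in cKO (log2 fold change 0.69, standard error 0.13). Ifitm2, the paralog of Ifitm3, had 4126 and 5149 in WT and 3678 and 3412 in cKO, a log2 fold change of -0.38 that was not called. Lgals3bp completed the called members, with 11689 and 11865 in WT and 20478 and 18376 in cKO (log2 fold change 0.72, standard error 0.11).

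Cmpk2, a mitochondrial nucleotide kinase that lies next to Rsad2, fell just short of the fold threshold with a log2 fold change of 0.57, from 14399 and 12833 in WT to 20788 and 19615 in cKO. Of the OAS family at 4 h, Oas2 had a log2 fold change of 0.53 and the 4 genes Oas1a, Oas1g, Oasl1 and Oasl2 lay between 0.08 and 0.29, none of them called. The 3 genes of the ISG15 system lay between 0.17 and 0.37 and the 4 PARP genes and partners (Parp9, Dtx3l, Parp12 and Parp14) between 0.03 and 0.39, also without a call.

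A further set of members lay apart between the genotypes at 4 h but under the fold threshold. Rtp4, a chaperone of receptors in the Golgi, had a coverage of 1809 and 1766 in WT and of 2435 and 2659 in cKO (log2 fold change 0.51). Daxx had 6952 and 6485 in WT and 9260 and 9187 in cKO (0.46), and Nmi, a partner of STAT proteins, had 1938 and 1768 in WT and 2483 and 2590 in cKO (0.45). Tor3a, an ATPase of the endoplasmic reticulum, had 3983 and 3737 in WT and 5344 and 5148 in cKO (0.44). These differences were larger than the spread of the 2 samples in each group and not far above the 0.31 of the median gene.

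**Figure D2:**
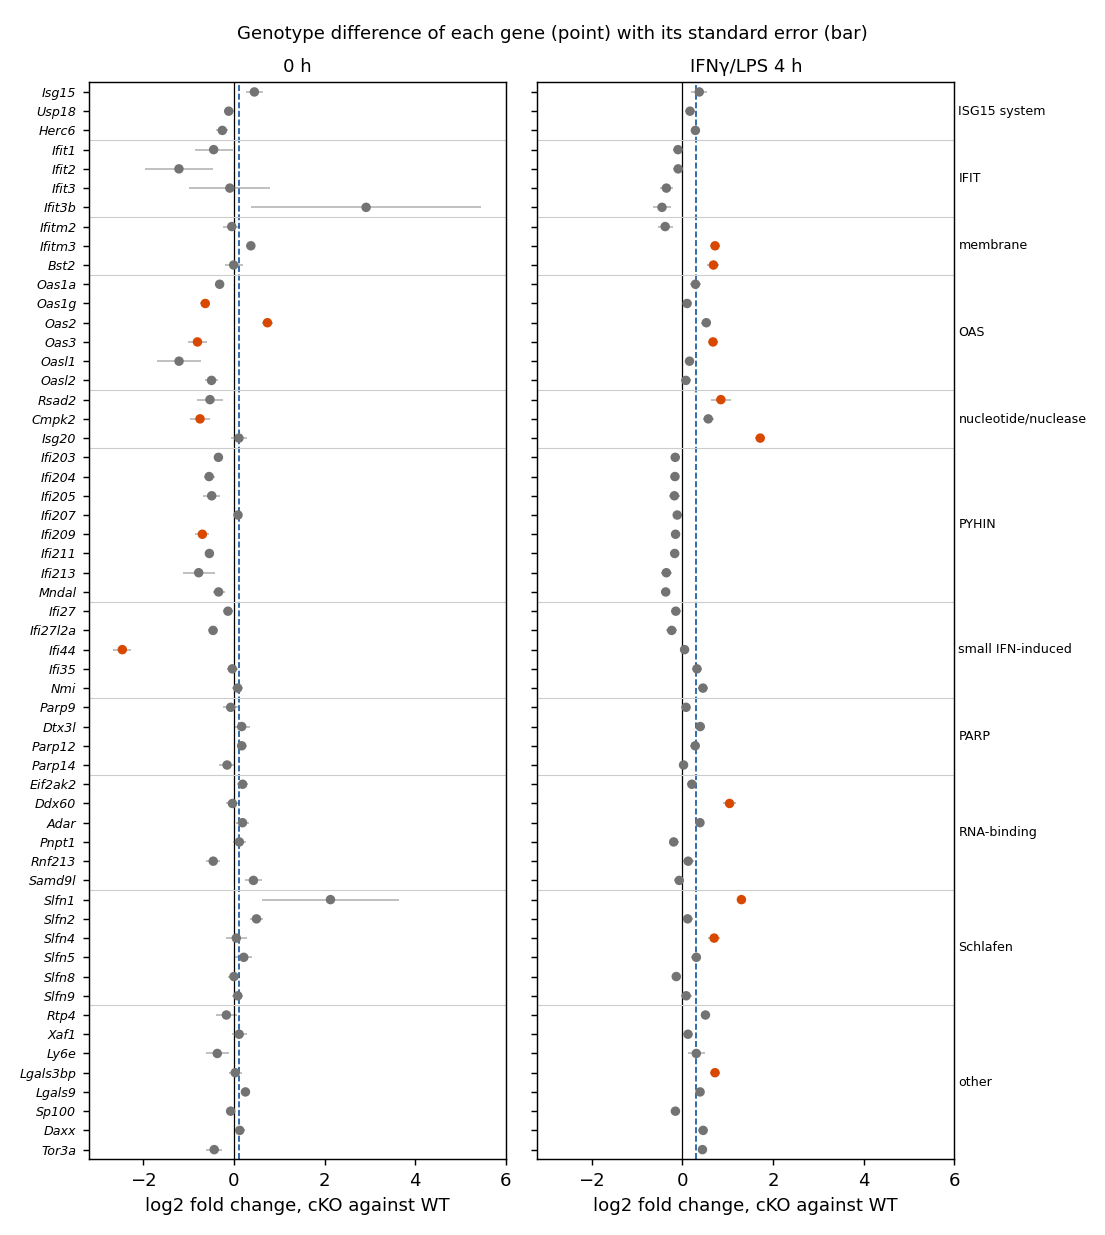
Genotype difference (cKO over WT, log2) at 0 h in the left panel and 4 h in the right panel for each of the 56 genes (points, orange where called; bars are standard errors), with 0 as a solid line and the median of all genes tested as a dashed line (0.10 at 0 h, 0.31 at 4 h). At 4 h the 4 IFIT and 8 PYHIN genes lie left of both lines and Isg20 and Slfn1 lie farthest right.

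At 4 h 19 of the 56 members had a negative log2 fold change, so that 66.1% were positive, against 70.7% of all genes tested. All 4 IFIT genes had negative log2 fold changes, from -0.45 (Ifit3b) to -0.09 (Ifit2), and so did all 8 PYHIN members, from -0.37 (Mndal) to -0.11 (Ifi207). The 7 further negative members were Ifitm2 (-0.38), Ifi27l2a (-0.24), Pnpt1 (-0.19), Sp100 (-0.15), Ifi27 (-0.14), Slfn8 (-0.13) and Samd9l (-0.07). None of the 19 was called. Mndal had a coverage of 11955 and 12449 in WT and of 9758 and 9157 in cKO, and Ifi213 had 4988 and 5203 in WT and 4210 and 3772 in cKO, so that both genes were lower in both cKO samples. Ifi205 had 45563 and 39670 in WT and 37634 and 37615 in cKO.

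The 8 PYHIN members lie within 466 kb, at chr1:173566283-174031810 of GRCm38. The 2 other genes tested in this stretch, Ifi208 and Ifi202b, had log2 fold changes of -1.93 and -1.69 at 4 h, and Ifi208 had -1.85 at 0 h. Several members resemble each other in sequence, so that their reads could be split between copies in counting. Of the stretches of 100 bases in the transcripts of a gene, 56.9% also occurred in another gene for Ifi211, 40.9% for Oas1a, 34.9% for Ifitm2, 31.7% for Ifit3, 31.2% for Oas1g and 27.4% for Ifit3b. For 33 of the 56 members no stretch did, Isg20, Ifi44, Rsad2, Oas3 and Ddx60 among them.

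Because the median gene itself was higher in cKO at 4 h, the calls depended on the scale. With each sample centred on its median gene, 3 members remained called higher, Isg20 (log2 fold change 1.38), Slfn1 (0.97) and Ddx60 (0.70), and 10.4% of all genes were called higher. On that scale 4 members were called lower, Ifitm2 (-0.72), Mndal (-0.71), Ifi213 (-0.69) and Ifit3 (-0.69), against 9.9% of all genes. The calls of Rsad2, Ifitm3, Bst2, Oas3, Slfn4 and Lgals3bp were lost, with log2 fold changes between 0.34 and 0.51. Without cKO replicate 3 at 4 h 5 members were called higher (13.4% of all genes), and without WT replicate 2 at 4 h 1 was called lower (3.87% of all genes).

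Without stimulation 34 of the 56 members had a negative log2 fold change of cKO over WT, against 19 at 4 h. The members thus went from 39.3% positive at 0 h to 66.1% at 4 h, and all genes tested from 59.8% to 70.7%. From 0 h to 4 h 19 members went from negative to positive, among them Bst2 and Ddx60, which lay near 0 at 0 h (-0.007 and -0.034). A further 4 went from positive to negative and 33 kept their sign. The 4 h part of this depended on the scale, since with each sample centred on its median gene the median of the members was -0.17 at 0 h and -0.19 at 4 h. At 0 h 1 member was called higher in cKO (1.79%), against 8.99% of all genes tested, and 5 were called lower (8.93%), against 5.61%. No member had an adjusted p under 0.05 from limma in either direction, where 0.701% of all genes were higher and 0.326% lower. At an unadjusted p under 0.05 alone, 11 members were lower and 3 higher, against 7.76% and 13.5% of all genes. Over the members the median log2 fold change was -0.07 while that of all genes was 0.10, and 17 of the 56 members lay above it. Both cKO samples lay below both WT samples in 23 members (41.1%), where all genes gave 20.9%, and above them in 11 (19.6%), where all genes gave 36.1%.

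Ifi44, a cytoplasmic protein induced by interferon, was the called member farthest from 0 at 0 h. Its coverage at 0 h was 12.2 and 14.4 in WT and 2.04 and 2.62 in cKO, and at 4 h it was 1422 and 1407 in WT and 1428 and 1500 in cKO. The cKO mean was 0.176 of the WT mean at 0 h, and at 4 h the genotypes lay within 1.04-fold of each other in their means. The log2 fold change at 0 h was -2.46 (standard error 0.20, adjusted p = 0.0649 from limma). Ifi44 lies at chr3:151730922-151749960 on the minus strand of GRCm38. Ifit3b, which was not called, lay farther from 0 at 0 h (log2 fold change 2.92, standard error 2.54), from a coverage of 0 and 7.17 in WT and of 10 and 4 in cKO, which overlapped.

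Oas3 had a coverage at 0 h of 451.3 and 610.1 in WT and of 319.0 and 282.3 in cKO (log2 fold change -0.81, standard error 0.21). Oas1g, a gene of the same cluster, had 361.7 and 378.8 in WT and 245.0 and 232.3 in cKO (log2 fold change -0.63, standard error 0.11). Oas2, in contrast, had 202.1 and 186.2 in WT and 311.1 and 336.7 in cKO (log2 fold change 0.74, standard error 0.12) and was the 1 member called higher. The 3 genes lie in the same cluster on chromosome 5, and each kept the genotypes apart, with Oas2 on the opposite side.

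Cmpk2 had a coverage at 0 h of 55.2 and 79.0 in WT and of 38.4 and 40.1 in cKO (log2 fold change -0.75, standard error 0.23). Ifi209, a PYHIN gene, had 256.1 and 282.3 in WT and 181.1 and 151.7 in cKO (log2 fold change -0.70, standard error 0.15). Both were lower in each cKO sample. Of the PYHIN genes 7 of 8 had negative log2 fold changes at 0 h, down to -0.78 for Ifi213, and Ifi207 had 0.09. With each sample centred on its median gene, 8 members were called lower at 0 h, against 6.98% of all genes, the further 3 being Ifi204 (-0.64), Ifi211 (-0.63) and Oasl2 (-0.59). Oas2 was again the 1 member called higher, against 7.25% of all genes.

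The 2 WT 0 h samples differed from each other by more than 2-fold in 4 members. Ifit2 had a coverage of 9.67 and 34.9, Ifit3 of 8.95 and 38.2, Ifit3b of 0 and 7.17 and Slfn1 of 0.308 and 4.98, replicate 2 being the higher each time. In the same 2 samples the markers of plasmacytoid dendritic cells, Siglech and Ccr9, summed to 2.37 and 24.8, and those of fibroblasts to 86.9 and 192.7, and their part in this difference was not tested. In the cKO 0 h samples 1 member, Ifit3b, differed by more than 2-fold, and at 4 h none did in either genotype. Without WT replicate 2 at 0 h 2 members were called lower and 3 higher at 0 h, where all genes gave 5.56% and 10.1%. Without cKO replicate 4 2 were called lower (6.25% of all genes), and without cKO replicate 3 3 were called higher (8.57% of all genes).

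**Figure D3:**
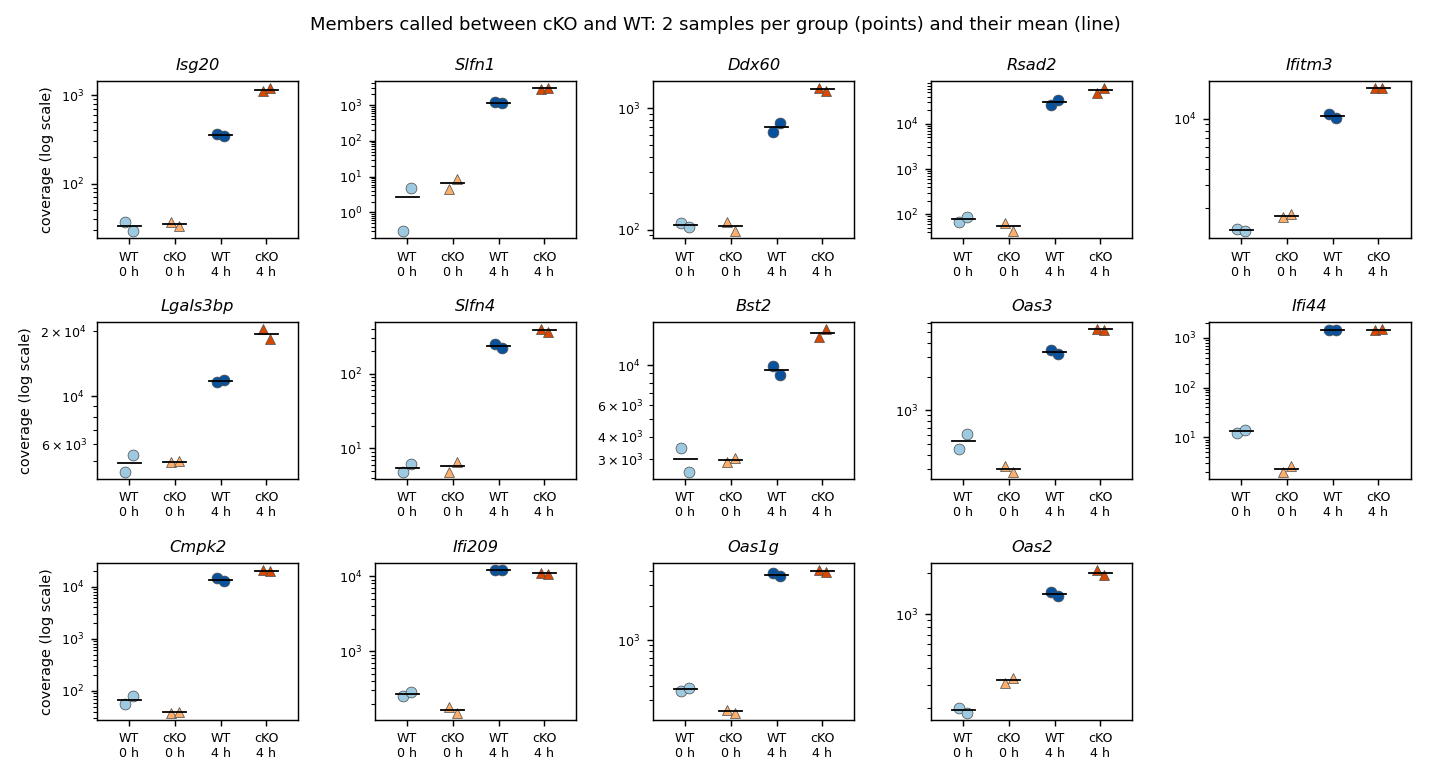
Coverage (log scale, a scale of its own for each gene) in the 2 samples of each group (points) and their mean (line) for the 14 members called between cKO and WT at 4 h or at 0 h. Isg20 overlaps between the genotypes at 0 h and is apart at 4 h, Ifi44 is far apart at 0 h and close together at 4 h, and Oas3 is lower in cKO at 0 h and higher at 4 h.

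Whether the genotype difference itself changed with stimulation was tested as an interaction over the 8 samples, which is the same as asking whether the response differed between WT and cKO. The value tested is signed, the log2 difference of cKO over WT at 4 h minus that at 0 h, so that a difference that shrinks from below 0 counts as a positive shift. With an adjusted p under 0.05 from limma, 2 members had a positive shift (3.57%), against 2.28% of all genes tested, and none had a negative one, against 0.761%. Ifi44 rose by 6.73 in WT and by 9.24 in cKO on the log2 scale, a difference of 2.51 (95% confidence interval 1.94 to 3.08, adjusted p = 0.0120 from limma). Isg20 rose by 3.43 in WT and by 5.04 in cKO, a difference of 1.61 (95% confidence interval 1.09 to 2.12, adjusted p = 0.0292 from limma). The genotype difference of Ifi44 was -2.46 at 0 h and 0.05 at 4 h, and that of Isg20 was 0.11 at 0 h and 1.72 at 4 h. The gap between the genotypes thus closed in Ifi44 and opened in Isg20.

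At an unadjusted p under 0.05, 20 members (35.7%) had a positive shift, where all genes gave 16.8%, and none had a negative one, where all genes gave 5.25%. These counts depended on the scale. With each sample centred on its median gene, 6 members had a positive shift (Cmpk2, Ddx60, Ifi44, Isg20, Oas3 and Rsad2), against 8.97% of all genes, and 5 had a negative one (Ifi207, Ifitm2, Pnpt1, Samd9l and Slfn2), against 12.6%. Without centring, Oas3 had the next smallest adjusted p from limma, 0.0509, with a difference of 1.48 (standard error 0.24). Rsad2 had a difference of 1.38 and its neighbour Cmpk2 of 1.32, with 95% confidence intervals of 0.39 to 2.37 and 0.63 to 2.01, and Ddx60 one of 1.07, with 0.57 to 1.57. The 3 enzymes of nucleotides and nucleic acids (Rsad2, Cmpk2 and Isg20) thus had differences between 1.32 and 1.61. The median over the 56 members was 0.32, against 0.20 over all genes tested.

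After each sample was centred on its median gene the difference of Ifi44 was 2.25 (adjusted p = 0.0191 from limma) and that of Isg20 was 1.34 (adjusted p = 0.0776), so that Isg20 lost its call. With the replicate number as a block neither was called (adjusted p from limma 0.119 for Ifi44 and 0.149 for Isg20), and whether a number marks the same mice at both times is not given in the sources used here. Leaving out 1 sample at a time gave between 0 and 4 called members, with 0 without cKO replicate 4 at 4 h (0.717% of all genes with a positive shift) and 4 without WT replicate 1 at 0 h (1.30%). Ifi44 was called in 7 of these 8 fits (adjusted p from limma 0.0170 to 0.0591), the exception being that without cKO replicate 4 at 4 h. Isg20 was called in 1 of the 8, that without WT replicate 2 at 0 h, and its adjusted p from limma ran from 0.0314 to 0.108.

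**Figure D4:**
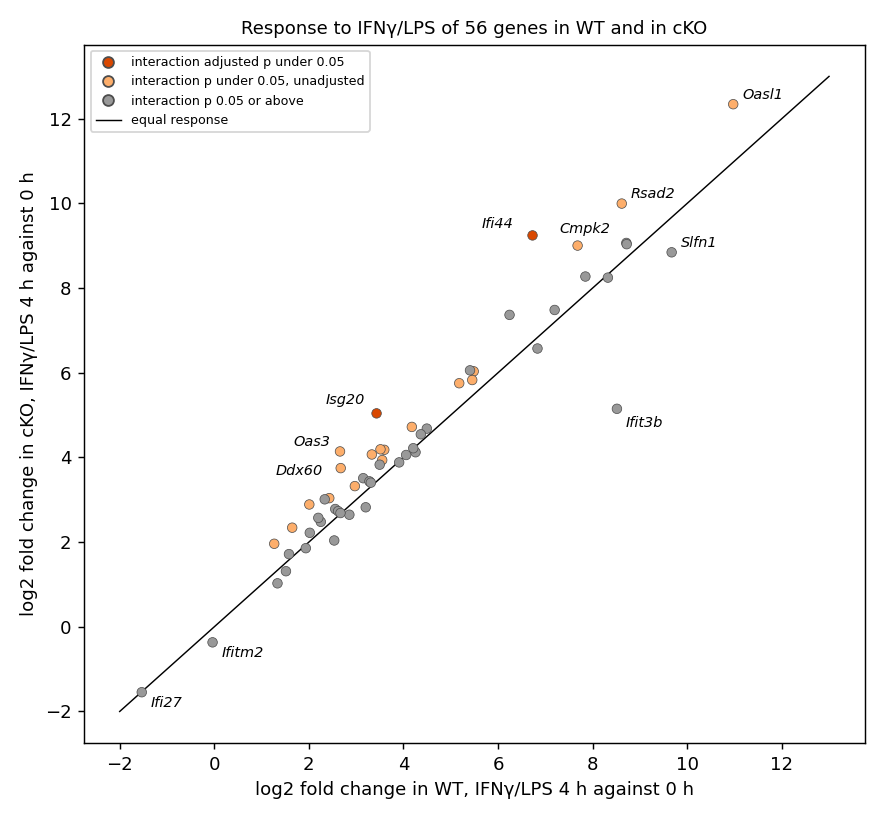
Response to IFNγ/LPS of each of the 56 genes in WT (horizontal axis) and in cKO (vertical axis), both as log2 fold change at 4 h against 0 h, with the line of equal response. Isg20 and Ifi44 (dark orange) lie above the line with an adjusted p under 0.05, and Ifit3b lies farthest below it (standard error of the difference 2.81).

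Of 36 further genes of the interferon pathway listed by role, 33 had a row. At 4 h 4 of them were called higher in cKO and 1 lower, where 20.8% and 4.17% of all genes were. At 0 h none of the 32 tested was called higher and 1 was called lower, where all genes gave 8.99% and 5.61%. Ifnb1, which codes for interferon beta, was listed at 0 in both WT 0 h samples and at 0.587 and 1.20 in cKO, and at 4 h it had a coverage of 1631 and 1403 in WT and of 3852 and 4851 in cKO (log2 fold change 1.51, standard error 0.19, adjusted p = 0.0572 from limma). Irf7, the factor that amplifies interferon production, had 9105 and 8745 at 4 h in WT, against 17146 and 16441 in cKO (log2 fold change 0.91, standard error 0.10). Both genes were higher in each cKO sample at 4 h.

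At 4 h Socs1, an inhibitor of JAK kinases, was called with a log2 fold change of 0.77, and Cgas, a sensor of cytosolic DNA, with 0.69. Ticam2, an adaptor of Tlr4, had -0.68 and was the gene called lower at 4 h. Of the receptors and their effectors at 4 h, Ifnar1 had -0.32, Ifnar2 0.35, Stat2 0.42 and Irf9 0.23, none of them called. At 0 h Ifngr1, a chain of the IFNγ receptor, had a coverage of 5355 and 4998 in WT and of 3249 and 3308 in cKO (log2 fold change -0.66) and was the gene called lower. In the interaction Tlr4 was the 1 pathway gene called, with a difference of -1.04 (adjusted p = 0.0482 from limma), from a log2 fold change of 0.53 at 0 h to -0.50 at 4 h. IFNγ/LPS raised 17 of the 33 genes and lowered 6 in WT, where all genes gave 11.9% and 55.1%, and raised 19 and lowered 7 in cKO, where all genes gave 13.7% and 53.2%.

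The calls of the pathway genes depended on the scale too. With each sample centred on its median gene, Ifnb1, at 1.18 on the log2 scale, was the 1 gene still called higher in the cKO samples at 4 h (10.4% of all genes), and Irf7 (0.58), Socs1 (0.44) and Cgas (0.35) were not called. On that scale 7 of the 33 were called lower at 4 h, against 9.9% of all genes, namely Ticam2 (-1.02), Tmem173 (STING, an adaptor of the sensing of DNA, -0.93), Tlr4 (-0.84), Ifnar1 (-0.66), Jak2 (-0.65), Ifngr1 (-0.65) and Ticam1 (-0.60). At 0 h Ifngr1 (-0.75) and Tmem173 (-0.61) were called lower, against 6.98% of all genes, and none was called higher, against 7.25%, and in the interaction Tlr4 remained called (-1.30, adjusted p = 0.0268 from limma). After centring IFNγ/LPS raised 29 of the pathway genes and lowered 3 in WT, where all genes gave 33.5% and 22.4%, and raised 26 and lowered 3 in cKO, where all genes gave 32.7% and 23.2%.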

How the data were processed

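RNA-seq of 8 BMDM samples was used, 2 for each genotype and time. The samples were grouped by their titles, because the labels give the stimulation also for the 0 h samples. HISAT2 2.2.1 and StringTie 2.1.7 on GRCm38 (mm10) are named in the submitters' processing notes. The authors deposited 1 coverage signal per gene and sample, in 1 table per time. The unit was read from the values. The tables also hold the authors' own fold changes and p-values, which were not used, and 0 columns of sample values were left out. The depth in reads was not available per gene, so no counting interval was computed.

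The design foresaw counts or FPKM. Since coverage is neither, limma 3.58.1 (R 4.3.3) was run on log2(coverage + 0.1) over every gene whose coverage averaged 0.5 or more, with p-values adjusted over all of them. The method was tested on simulated data. Samples were left on the deposited scale, and alternatives covered the pseudocount, the filter, 3 scalings, the spread estimate, single samples left out and a block for the replicate number. Each sample pooled 2 mice, and the study describes its replicates as different mice. P-values measure the spread between 2 such samples a group. The members and lists were chosen with earlier results of these data known. Each member called between the genotypes or by the interaction, and the 5 highest and 5 lowest responses in WT, were given with their samples. Gene positions came from GENCODE vM21 and promoter windows from RefSeq (GRCm38.p6, 46 members with a window). Shared sequence was counted as stretches of 100 bases of the GENCODE transcripts. Python 3.11.15 with pandas 2.3.3 was used for the summaries.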

Additional observations from a re-analysis of the deposited data

Results flagged for a closer look

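The genotype difference of 2 members differed between the times by the interaction test over all 8 samples, in which limma with Benjamini-Hochberg adjustment was fitted to all genes. Ifi44 had a log2 difference of 2.51 (4 h minus 0 h). Its values moved apart in the unstimulated samples, where both cKO samples (2.04 and 2.62) lay below both WT samples (12.2 and 14.4). Isg20 had a log2 difference of 1.61, and its values moved apart after IFNγ/LPS, where both cKO samples (1119 and 1205) lay above both WT samples (364.5 and 341.9). Neither member was called with the replicate number as a block, and Isg20 was not called after median-centring. With 1 sample left out at a time, Ifi44 stayed called in 7 of 8 fits and Isg20 in 1 of 8.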

How the results depend on the processing

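The members called higher with IFNγ/LPS numbered 52 to 55 of 56 in WT and 54 to 55 in cKO over the alternatives run. Of all genes, from 8.8% without the filter to 33.5% after median-centring were called higher in WT, and from 10.5% to 32.7% in cKO. After median-centring the 1 member called lower became 0 in WT (22.4% of all genes) and 0 in cKO (23.2%). After quantile normalization it became 2 in cKO (30.8%). At 4 h the members called higher in cKO numbered 3 after median-centring, 3 with equal totals and 4 after quantile normalization, and those called lower 4, 1 and 2. All genes gave 10.4%, 13% and 10.2% higher and 9.9%, 6.78% and 9.87% lower. The median of the members turned to -0.194, -0.069 and -0.071 under these scalings. Leaving out 1 sample gave 5 to 9 called higher (11.9% to 26.8% of all genes) and 0 to 1 called lower (3.22% to 5.74%). At 0 h, 8 members were called lower under each of the 3 scalings (6.98% to 7.43% of all genes), and leaving out 1 sample gave 2 to 7 called lower (5.40% to 6.25%) and 1 to 3 called higher (6.36% to 10.1%). The interaction called 7 members without the filter, 11 with an intensity trend, 1 after median-centring, 1 after quantile normalization and 0 to 4 with 1 sample left out, each with a positive shift. Of all genes 3.54%, 6.36%, 1.07%, 1.29% and 0.717% to 3.35% were called so. The cause of these changes was not tested. A lone sample left in a group is assumed to vary like the others.

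The replicate numbers recur at both times within a genotype. Deviations of same-numbered samples had a correlation over 16284 genes of 0.0204 in WT and 0.0237 in cKO, and the 2 samples of a genotype kept their order at both times in 50.9% and 47.2% of genes. The order was kept in both genotypes in 16 of 56 members and in 4113 of the 16284 genes. Among the markers it was kept in 7 of 8 for neutrophils, 3 of 8 for macrophages and 3 of 5 for fibroblasts. For T cells it was kept in 0 of 3, for B cells in 2 of 2, for NK cells in 1 of 1 and for erythroid cells in 0 of 2. For plasmacytoid dendritic cells and for mast cells or basophils it was kept in 1 of 2 each. Whether the numbers pair the samples is not settled, and they were not taken as pairs. With the replicate block, the interaction called 0 members (0.0921% of all genes with a positive shift), and 0 when median-centring was added, an alternative chosen after the data were seen (adjusted p from limma of Ifi44 0.119 and 0.170 and of Isg20 0.149 and 0.213). The block left 53 members called higher by stimulation in WT (11.6% of all genes) and 54 in cKO (13.5%). The depth in reads behind each value is unknown, and 2 samples per group give a poorly known spread.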
